A study of Arabidopsis thaliana with 251 samples.

Results

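ELF7-bound regions without Pol II were regions of the *Arabidopsis thaliana* genome that carried FLAG-tagged ELF7 in floral tissue and no peak of RNA polymerase II (Pol II) in wild-type leaves. A region had to be listed in ELF7-FLAG replicate 1, overlap a replicate 2 region whose summit reached at least 2-fold over local background, and overlap no Pol II peak of either Col-0 replicate. Of 16768 replicate 1 regions, 8529 met the ELF7 condition and 1769 of those also had no Pol II peak. The remaining 6760, called ELF7-bound regions with Pol II, served for comparison. The counts, folds and the lack of Col-0 Pol II therefore describe how the regions were chosen, and no test was made on them. The choice also favours narrow regions that cover little of a gene, since no base of a region could meet a Pol II peak.

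ELF7 belongs to the PAF1 complex (PAF1C), which travels with Pol II along transcribed genes and helps to bring about methylation of histone H3 on the way. H3K4me3 and histone acetylation mark the starts of active genes, H3K36me3 and H3K36me2 mark bodies of transcribed genes, and H3K27me3 is laid down by Polycomb proteins over genes kept silent in a given tissue, floral regulators in leaves among them. Loss of PAF1C subunits in *Arabidopsis* leads to early flowering and to floral defects.

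The study used zinc-finger (ZF) fusions to bring proteins to *FWA*, a flowering-time gene that is silent in the wild type and expressed in the *fwa* epiallele. All lines were of the Col-0 ecotype and 4 to 5 weeks old, the age given in the labels. ELF7-FLAG was driven by its own promoter in plants of the *elf7-3* mutant, which carries a T-DNA insertion in *ELF7*, and replicates 1 and 2 came from floral tissue of data sets SET16 and SET17. Pol II phosphorylated at Ser5 was measured in leaves of Col-0 and *elf7-3* with 1 library of each in SET12 and in SET13, and histone marks in leaves of *fwa* and of ZF lines. ELF7-ZF, EYFP-ZF, HD2A-ZF and CPL2-ZF denote ZF fusions carried in the *fwa* background. Because ELF7 was mapped in flowers and Pol II and the marks in leaves, a gene transcribed in flowers alone cannot be told apart from a gene on which ELF7 lay away from Pol II. The labels do not say whether replicates came from separate plants, and p-values take libraries as units. Where every library of a mark moved the same way, the sign-flip p depends on the number of libraries alone and measures no spread.

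Some lists stood apart from the others of the same mark and bear on the results below. The *fwa* lists labelled H3K27me3 held 12441 regions in SET1 and 14103 in SET2, but 2199 and 1149 in SET14. Of 18 photosynthesis genes, which leaves transcribe strongly, the SET1 and SET2 lists of all lines overlapped 1 to 2, whereas the SET14 lists overlapped 16 to 17. The second *elf7-3* Pol II list held 10611 regions against 17578 in the first, and the names of its peaks carry the label of H3 rather than of Pol II. Read depth is unknown for all libraries, so that the number of peak regions is the only measure of it, and a missing peak means only that none was called.

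Sequences are shown for 4 regions of high ELF7 fold, because their summits show the range from wholly intronic to wholly coding. *SEP3* and *AP1* encode MADS-box regulators of floral organs, and *LACS2* and *CYP96A15* encode enzymes of surface lipids. Each line gives the 200 bases around the highest replicate 2 summit in the gene's own 5′ to 3′ direction, read from TAIR10.1, with coding bases in capitals and introns in lower case. *SEP3* (chr1:8595145-8595344, minus strand) and *AP1* (chr1:25985644-25985843, minus strand) had their summits in an intron, without a coding base in the window, whereas *LACS2* (chr1:18293462-18293661, plus strand) had 117 coding bases and *CYP96A15* (chr1:21385415-21385614, minus strand) had 200.
SEP3: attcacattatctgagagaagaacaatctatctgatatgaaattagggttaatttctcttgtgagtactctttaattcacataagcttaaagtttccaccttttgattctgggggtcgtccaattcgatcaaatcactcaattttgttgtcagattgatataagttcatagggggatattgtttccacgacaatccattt
AP1: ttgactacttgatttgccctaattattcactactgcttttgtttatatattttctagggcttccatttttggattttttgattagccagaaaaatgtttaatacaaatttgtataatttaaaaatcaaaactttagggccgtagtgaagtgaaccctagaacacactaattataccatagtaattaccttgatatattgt
LACS2: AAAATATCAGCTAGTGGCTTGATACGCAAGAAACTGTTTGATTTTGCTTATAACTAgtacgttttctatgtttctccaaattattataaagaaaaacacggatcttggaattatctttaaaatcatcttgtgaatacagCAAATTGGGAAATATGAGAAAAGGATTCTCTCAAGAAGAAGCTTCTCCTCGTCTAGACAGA
CYP96A15: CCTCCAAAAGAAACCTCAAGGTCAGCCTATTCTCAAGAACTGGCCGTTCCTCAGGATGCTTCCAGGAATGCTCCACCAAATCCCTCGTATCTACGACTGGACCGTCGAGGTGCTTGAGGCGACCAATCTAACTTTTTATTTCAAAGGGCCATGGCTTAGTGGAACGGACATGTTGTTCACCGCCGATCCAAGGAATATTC

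The GC content of these windows ran from 28.5% in *AP1* to 49.5% in *CYP96A15*, with 34% in *SEP3* and 32.5% in *LACS2*. Over 300-bp windows around the summits that fell inside the regions, GC content was 37.2% ± 4.81 (SD, n = 1607 regions) without Pol II and 37.7% ± 5.44 (SD, n = 6567 regions) with Pol II. The summit lay in coding sequence in 42.7% and 41.0% of them. Base composition and summit position were thus nearly alike in the regions with and without Pol II. On either strand, TATAAA was found in 29.8% of windows without Pol II and in 26.3% of windows with Pol II, AAACCCTAA in 1.56% and 2.51%, GAGAGAGA in 4.85% and 5.15%, and CACGTG in 2.43% and 2.30%. TGGGCC or TGGGCT was found in 7.72% and 6.65%, and the CArG box, the element that MADS-box proteins bind, in 2.36% and 1.99%. On genes without any Pol II peak TATAAA was found in 34.8% of windows and CACGTG in 3.92%, against 26.2% and 1.44% where Pol II lay elsewhere in the gene. These shares are descriptions and were not tested.

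The 1769 regions lay on all 5 chromosomes, with 494 on chromosome 1, 250 on chromosome 2, 365 on chromosome 3, 258 on chromosome 4 and 402 on chromosome 5. They were shorter than the regions with Pol II, with a median width of 1124 bp (range 200 to 11191) against 1701 bp. Their median ELF7 fold was 2.55 (range 2.00 to 11.2) against 3.31. They were almost all genic, since 1742 (98.5%) overlapped a protein-coding gene and 1671 overlapped only 1 such gene. Of the other 27 regions, 22 lay over noncoding genes or pseudogenes and 5 over no annotated gene. A total of 162 regions shared a replicate 2 region with another member, so that neighbouring members are not independent.

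Within their genes, both groups of ELF7-bound regions seldom ran over the gene start, in 10 of 1742 (0.574%) without Pol II and 69 of 6623 (1.04%) with Pol II. The median midpoint lay at 50.4% of the gene without Pol II and at 54.1% with Pol II. Of the regions without Pol II, 90.1% lay wholly inside the gene, against 64.4% of those with Pol II. The median gap from the start of the gene to the region was 638 bp, against 256 bp with Pol II, and the genes were longer, with a median of 3358 bp against 2529 bp. A region covered a median of 35.5% of its gene, against 78.4% with Pol II. Width and coverage follow in part from the choice of the regions and are given as a description.

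The nearest Col-0 Pol II peak was a median of 1225 bp away (range 1 to 133226), and 554 regions (31.3%) had one within 500 bp. The regions fell into 2 kinds by whether the gene itself, with 500 bp upstream, carried a Col-0 Pol II peak outside the region. In 1089 regions (62.5% of 1742), on 885 genes, it did. These genes had a median length of 3798 bp, the region covered a median of 27.1% of them, and Pol II was a median of 555 bp away. In the other 653 regions, on 570 genes, no Pol II peak was found in the gene, whose median length was 2675 bp. Here the region covered a median of 56.7% of the gene, the median ELF7 fold was 2.72 against 2.46, and Pol II was a median of 3528 bp away.

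Where the gene carried Pol II elsewhere, it lay mostly towards the 3′ end. All Pol II peaks were 3′ of the region's midpoint in 489 of 1089 regions (44.9%), on both sides in 418 (38.4%), and 5′ only in 182 (16.7%). In the plot of peaks along the gene, Pol II of Col-0 replicate 1 was highest just past the gene end, where 61.6% of the 885 genes had a peak in the first 100 bp, and H3K4me3 of *fwa* reached 88.5% of genes near the start. H3K36me3 covered the interior of up to 92.1% of these genes and ELF7-FLAG up to 79.5%. On the 570 genes without Pol II, ELF7-FLAG reached 86.3% in the interior, while H3K4me3 reached 50.2% and H3K36me3 45.4%, and H3K27me3 of SET1 was found on up to 24.0%.

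**Figure D1:**
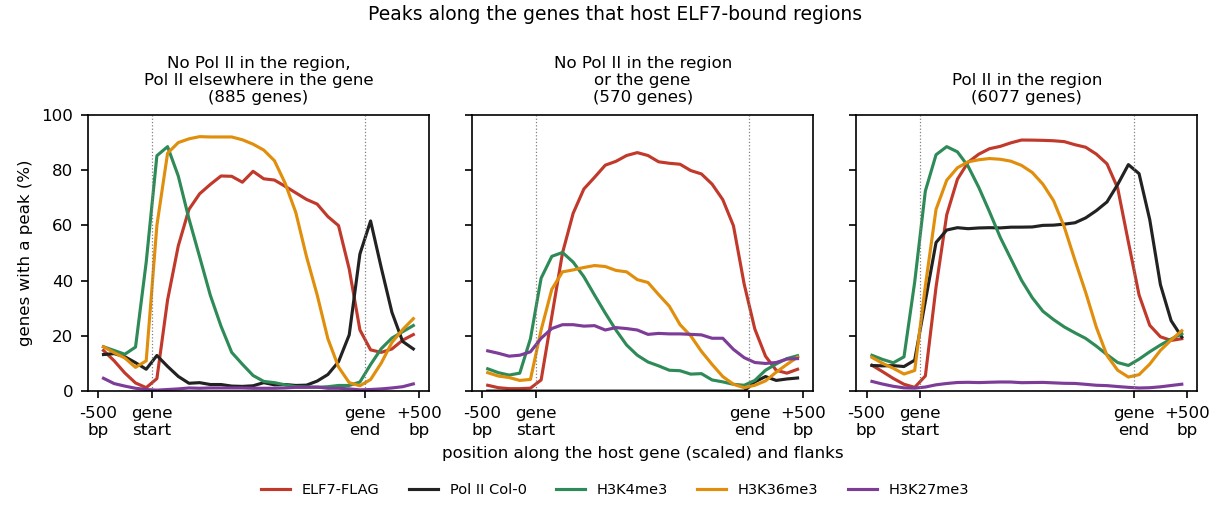
Percentage of genes with a peak at each position, along the scaled gene body (20 bins) and 500 bp on each side, for ELF7-FLAG replicate 1, Pol II of Col-0 replicate 1 and 3 marks in *fwa* leaves (1 library per line, SET14 for H3K4me3 and H3K36me3, SET1 for H3K27me3). In the 885 genes of the left panel Pol II peaks gather past the gene end (61.6%), and in the 570 genes of the middle panel H3K27me3 reaches 24.0%.

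Histone marks and Pol II in *fwa* were measured in libraries that took no part in choosing the regions, and were compared between regions without and with Col-0 Pol II within each library. The groups were divided by leaf Pol II, and active marks lie on transcribed genes. A lower share of active marks therefore follows in part from the choice, and how far it does was not tested. Regions without Pol II carried active marks less often in every *fwa* library of each of 7 histone marks. H3K27me3 alone had no common direction. The size of the difference depended on how overlap was counted: a peak that touched the region by 1 bp was enough here, and the regions without Pol II were narrower. When the peak had to cover the midpoint of the region, the differences were -20.5 points for H3K4me3, -22.9 for H3K9ac, -17.0 for H3K14ac, -20.6 for H3K27ac, -17.6 for H4K16ac, -15.2 for H3K36me2, -5.61 for H3K36me3 and -44.6 for Pol II, in place of the values given for each mark hereafter. With 2 to 7 libraries per mark, no difference passed an adjusted p of 0.05 (exact sign-flip permutation test over libraries, two-sided, Benjamini-Hochberg over 9 marks). The smallest adjusted p of this test was 0.0938. Pol II, by which the regions were chosen, was 1 of the 9 marks. Without it the adjusted p of H3K9ac and of H3K27ac would have been higher. As background, the share of all 8529 ELF7-bound regions with a peak in every *fwa* library was 71.8% for H3K4me3, 77.1% for H3K36me2, 80.6% for H3K36me3, 0.422% for H3K27me3, 67.0% for H3K9ac, 73.9% for H3K14ac, 68.3% for H3K27ac, 44.8% for H4K16ac and 45.4% for Pol II. Against these, 37.5% of the regions without Pol II had H3K4me3 in every library, 58.8% H3K36me2, 72.3% H3K36me3, 0.339% H3K27me3, 27.8% H3K9ac, 41.0% H3K14ac, 33.4% H3K27ac, 10.5% H4K16ac and 0.622% Pol II.

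Among marks of gene bodies, H3K36me3 was found on 73.6% of the regions in SET14 and 79.5% in SET20, which is 76.5% ± 4.16 (SD, n = 2 libraries) against 86.3% of regions with Pol II. The difference of -9.72 percentage points could not go below a permutation p of 0.5 with 2 libraries. H3K36me2 was found on 64.9% of the regions in SET14 and 66.5% in SET20, against a mean of 86.8% with Pol II, a difference of -21.1 points (exact p = 0.5). Both libraries of each mark lay below the regions with Pol II. Which of the marks differed less depended on the regions taken: with a fold of at least 3 the difference was -34.0 for H3K36me3 and -29.1 for H3K36me2, and on genes without any Col-0 Pol II peak it was -29.1 and -26.7. With the stronger peaks of each list alone, it was -4.40 and -13.6.

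H3K4me3, the mark of active gene starts, was found on 38.8% of the regions in SET1, 51.9% in SET2, and 46.7% and 43.8% in SET14, which is 45.3% ± 5.48 (SD, n = 4 libraries). The regions with Pol II had 85.02% ± 1.56, a difference of -39.7 points in the same direction in 4 of 4 libraries (exact p = 0.125, the smallest possible, adjusted p = 0.188). The lowest share with Pol II was 82.8%, above the highest without, so that the groups did not overlap.

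Acetylation was lower by similar amounts. H3K9ac was found on 32.1% to 45.4% of the regions in 7 libraries (median 43.6%), against 84.0% ± 3.07 with Pol II, a difference of -44.4 points (exact p = 0.0156, adjusted p = 0.0938). H3K27ac was found on 37.1% to 51.2% in 6 libraries (median 48.8%), against a mean of 84.7%, a difference of -38.9 points (exact p = 0.03125, adjusted p = 0.0938). H3K14ac was the steadiest, with 47.8% and 47.1% in SET7 and 48.7% and 48.8% in SET15, a difference of -38.0 points from the regions with Pol II (exact p = 0.125, adjusted p = 0.188). H4K16ac was found on 17.02% and 15.8% of the regions in SET3, 28.4% in SET5, and 37.9% and 36.1% in SET15, against 73.8% ± 10.6 with Pol II, a difference of -46.8 points (exact p = 0.0625, adjusted p = 0.141). In H4K16ac the share differed between data sets, both with and without Pol II. The H3K9ac libraries came from SET3, SET6, SET7 and SET15, and those of H3K27ac from SET3, SET4 and SET15. Libraries of the same data set were close in H3K9ac, with 33.6% and 33.3% in SET3, 45.4% and 45.4% in SET7, and 43.8% and 43.6% in SET15. The tests counted each library as a unit, and data sets were not tested as units.

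H3K27me3, the Polycomb mark, was found on 12.2% of the regions in SET1 and 10.5% in SET2, against 5.43% and 5.53% of those with Pol II. In SET14, whose lists covered photosynthesis genes, it was found on 1.70% and 0.509%, against 9.67% and 5.04% with Pol II. The regions without Pol II were therefore higher in SET1 and SET2 and lower in both SET14 libraries. Over all 4 libraries the means were 6.22% ± 5.96 (SD, n = 4 libraries) and 6.42% ± 2.18, a difference of -0.20 points (exact p = 1). With the SET1 and SET2 lists alone, an alternative chosen after seeing the data, the difference was 5.85 points (n = 2 libraries, exact p = 0.5, the smallest possible).

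Pol II in *fwa* leaves was found on 3.73% to 19.4% of the regions in 6 libraries (median 13.03%). The regions with Pol II had 80.2% ± 9.54, a difference of -68.9 points. Leaf Pol II is the measure by which the regions were chosen, here in libraries of another line that took no part in the choice. A lower share thus followed largely from the choice, and the test on Pol II is not read as a result. Of the 1769 regions, 1162 (65.7%) had no Pol II peak in any *fwa* library, 269 had one in 1 library and 11 had one in all 6.

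**Figure D2:**
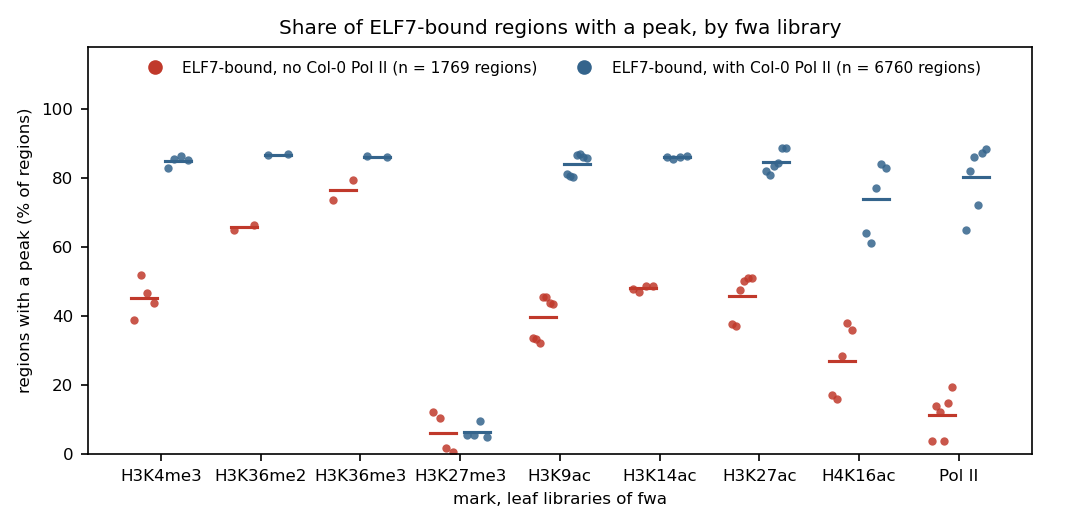
Percentage of ELF7-bound regions without (red) and with (blue) Col-0 Pol II that overlapped a peak, one point per *fwa* leaf library and a bar at the mean. For H3K4me3, both H3K36 marks, the 4 acetylation marks and Pol II, all red points lie below the blue ones of the same mark, and only for H3K27me3 do they overlap.

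Set side by side, the 2 kinds of region differed in H3K36me3 and H3K27me3, and for H3K4me3 the order depended on the library. H3K4me3 was found on 41.0% of regions on genes with Pol II elsewhere and 35.4% of those on genes without in SET1, on 47.8% and 45.3% in the first and 45.4% and 41.7% in the second SET14 library, but on 47.0% and 60.3% in SET2. H3K36me3 was found on 89.8% and 90.8% of the former in SET14 and SET20, and on 48.2% and 62.2% of the latter. H3K27me3 was found on 1.47% and 1.01% of the former in SET1 and SET2, and on 28.9% and 25.6% of the latter, against 5.43% and 5.53% of regions with Pol II. In the SET14 lists, which covered photosynthesis genes, it was found on 0.367% of the former in both libraries and on 3.98% and 0.766% of the latter. No test was made between the kinds, which were separated by Col-0 Pol II peaks.

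H3K36me3 and H3K27me3 hardly met on the same region. H3K36me3 was present in both *fwa* libraries on 1279 regions, H3K27me3 in both SET1 and SET2 on 177, and both on 4, while 317 had neither. The 177 regions with H3K27me3 had a median ELF7 fold of 3.25, a median width of 1426 bp and a median distance of 3296 bp to Pol II, and 160 of them were on genes without Pol II. On genes with Pol II elsewhere, 454 of 1089 regions (41.7%) had H3K36me3 in both libraries and H3K4me3 in none, against 472 of 6760 regions with Pol II (6.98%). On genes without Pol II, 192 of 653 regions (29.4%) had neither H3K36me3 in both libraries nor H3K27me3 in both.

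Taken by gene, 1524 of 27444 protein-coding genes (5.55%) overlapped an ELF7-bound region without Pol II, and 241 of them also overlapped one with Pol II. Most had a single such region (1288 genes), 199 had 2, and 23 had 3. Genes with 4 numbered 11, and *THO2*, *TOR* and *SYD* had 5 each. *THO2* encodes a subunit of the THO complex of messenger RNA export, *TOR* a protein kinase that couples growth to nutrients, and *SYD* a SWI/SNF chromatin remodeller. They measured 13769, 17748 and 17067 bp, whereas *AT1G21740*, with 4 regions, measured 4335 bp. The widest single regions lay likewise on long genes, and all 5 carried H3K36me3 in both *fwa* libraries. So did 72.3% of all 1769 regions, and a wide region meets a peak more easily. *ILA*, which encodes a HEAT-repeat protein of translation control, held the widest at 11191 bp with a fold of 3.60. *CHR5*, a CHD-type remodeller, followed with 10291 bp, *SYD* with 9856 bp, *SDG2*, the main enzyme of H3K4 trimethylation, with 8750 bp, and *AT3G11964*, annotated as RRP5 of ribosomal RNA processing, with 8243 bp. The first 4 of these had H3K4me3 in none of 4 *fwa* libraries over the region, and *AT3G11964* in all 4. Of all 1769 regions, 45.2% had H3K4me3 in none and 37.5% in all 4.

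**Figure D3:**
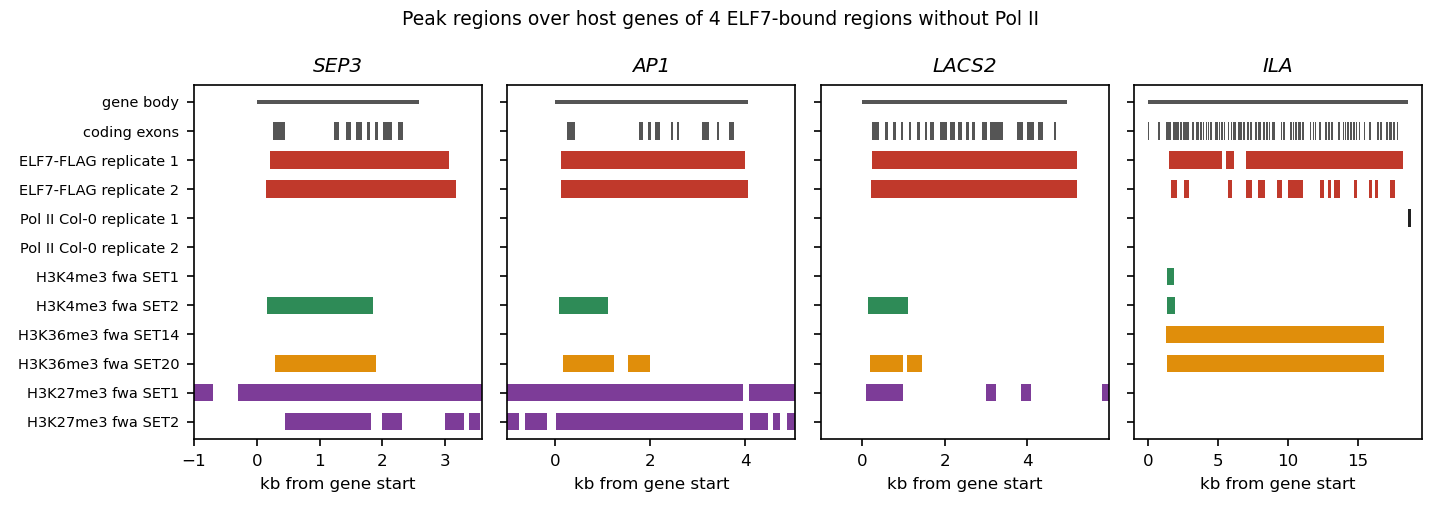
Peak regions over *SEP3*, *AP1*, *LACS2* and *ILA*, in kb from the gene start, for ELF7-FLAG, Pol II of Col-0 and marks of *fwa* leaves, with 1 library per row. Over *SEP3* and *AP1* the H3K27me3 lists of SET1 and SET2 cover most of the ELF7 region, whereas over *ILA* H3K36me3 covers most of the 11191-bp ELF7 region and the only Pol II peak lies at the gene end.

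Lists of genes that act in flowers, chosen with earlier results of these data known, gave unequal counts. Of 25 regulators of floral organs and meristems, 14 (56%) overlapped an ELF7-bound region without Pol II, against 5.55% of all protein-coding genes, and 9 of 23 genes of the anther, tapetum and pollen wall did (39.1%). The floral list had 2 further genes with only regions with Pol II, and 4 of its genes had a Col-0 Pol II peak at all. A member overlapped 3 of 19 cell-division genes (15.8%) and 2 of 8 in a list of PAF1C genes, *FLC* and *FWA* (25%). These shares were also above 5.55%. By contrast, a member overlapped 0 of 20 meiosis genes, 0 of 18 photosynthesis genes and 0 of 10 housekeeping genes. Of the meiosis genes, 15 had no ELF7-FLAG replicate 1 region at all, whereas 17 photosynthesis and 9 housekeeping genes overlapped a region with Pol II. For the photosynthesis and housekeeping genes, Pol II peaks on 18 of 18 and 10 of 10 genes in Col-0 leaves left little room for a member. The counts follow in part from the choice of regions, because leaf Pol II was part of it, and no test was made on them.

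The 14 floral regulators held 19 regions, 18 of them on genes without Pol II in the gene. Among MADS-box genes of organ identity, *SEP3* had an ELF7 fold of 10.5, *AP1* of 7.20, *SEP1* of 6.41 and *SEP2* of 5.80. *AP1* specifies sepals and petals, and the *SEP* proteins act as partners of the other organ regulators. *AGL8* (*FRUITFULL*), which patterns the fruit, had 6.41. *AG*, which specifies stamens and carpels, had 4.55, and *PI* and *AP3*, which specify petals and stamens, had 4.46 and 3.07. In these 8 genes a single region covered between 77.6% of the gene (*PI*) and 95.2% (*AP1*).

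Genes of ovules, carpels and the meristem had several smaller regions or lower folds. *STK*, an ovule regulator, had 2 regions of 3.25-fold, *SHP2*, which acts in fruit opening, had regions of 2.64-fold and 2.79-fold, and *CRC*, a YABBY gene of carpels and nectaries, had 2 of 2.02-fold near the limit of the choice. *STM*, the homeobox gene that keeps the shoot meristem, had regions of 2.55-fold, 2.55-fold and 2.899-fold. *SPT*, a basic helix-loop-helix gene of carpel margins, had 3.25. *AFO* (*FILAMENTOUS FLOWER*), a YABBY gene of the outer side of lateral organs that also works in leaves, had 3.78 and was the only one of the 14 with Col-0 Pol II elsewhere in the gene.

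In *fwa* leaves, 18 of these 19 regions carried H3K27me3 in both SET1 and SET2, and the same number did in each of the 10 lists of those data sets over 5 lines. In both *fwa* lists, 177 of all 1769 regions carried it, and 160 of the 653 on genes without Pol II. The exception was *SPT*, which had H3K27me3 in 0 of 4 *fwa* libraries and H3K4me3 in 4 of 4. In SET14 the *fwa* lists overlapped 10 and 3 of the 19. H4K16ac was found on 0 to 2 of the 19 over all lists and H3K9ac on 1 to 5. *AGL8* differed from the other MADS-box genes in that it carried H3K27me3 in 3 of 4 libraries and H3K9ac in 6 of 7, H3K27ac in 6 of 6 and H4K16ac in 3 of 5.

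H3K14ac was found on 4 to 8 of the 19 floral regions over all of its 10 lists. In all 4 *fwa* libraries it was found on 4 of them (21.1%), beside 41.0% of all 1769 regions. The other active marks on the floral regions depended on the data set. H3K4me3 was found on 11 to 12 of the 19 in 3 lists of SET2 and on 2 to 3 in 7 lists of other data sets. H3K27ac was found on 9 to 11 in 5 lists of SET4 and on 0 to 4 in 9 others, H3K36me3 on 8 to 9 in 2 lists of SET20 and on 1 to 2 in 2 others, and H3K36me2 on 9 in SET20 and on 3 to 5 elsewhere. The same data sets stood out on all 653 regions of genes without Pol II, with H3K4me3 on 58.3% to 60.3% in SET2 against 32.2% to 45.3%, and H3K27ac on 55.9% to 58.7% in SET4 against 27.9% to 49.5%. Of the 18 photosynthesis genes, 17 carried H3K4me3 in SET2 and 18 elsewhere, 14 to 17 carried H3K27ac in SET4 and 14 to 18 elsewhere, 13 to 14 carried H3K36me3 in SET20 and 16 to 17 elsewhere, and 16 carried H3K36me2 in SET20 and 18 elsewhere. All of these libraries are labelled as leaf, and why they differ was not tested. Without the lists of SET2, SET4 and SET20, an alternative chosen after seeing the data, the difference between all regions without and with Pol II was -41.8 points for H3K4me3, -40.9 for H3K27ac, -21.7 for H3K36me2 and -12.7 for H3K36me3, so that the direction was kept.

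**Figure D4:**
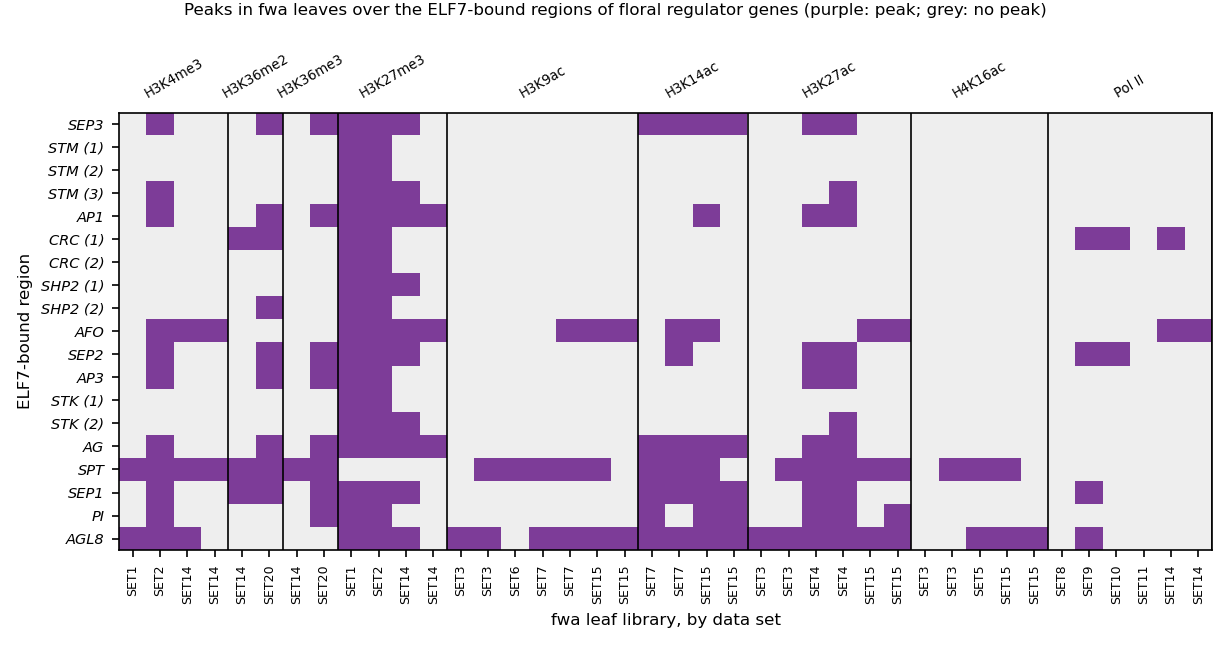
Presence of a peak (purple) over each of the 19 ELF7-bound regions without Pol II on 14 floral regulators, by *fwa* leaf library, grouped by mark and labelled by data set. H3K27me3 fills the SET1 and SET2 columns on 18 of 19 regions, and the SET2 column of H3K4me3, the SET4 columns of H3K27ac and the SET20 columns of H3K36 methylation hold more peaks than their neighbours.

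In the anther, the regions lay on both regulators and enzymes of the pollen wall. *EMS1*, a receptor kinase that sets the number of tapetal cells, had regions of 3.60-fold and 2.81-fold, *AMS*, a basic helix-loop-helix regulator of the tapetum, had 3.30, and *SPL* (*SPOROCYTELESS*), which starts sporocyte formation, had 2.81. *ACOS5*, an acyl-CoA synthetase, and *LAP6*, a polyketide synthase, both act in sporopollenin synthesis and had 2.81 each. *MS2*, a fatty acyl reductase, and *CYP704B1*, a fatty acid hydroxylase of the same route, had 2.46 each. *QRT3*, a polygalacturonase that separates pollen grains, had 2.72, and *GRP17*, an oleosin of the pollen coat, had 2.69. Of these 10 regions, 5 had H3K27me3 in at least 1 *fwa* library and 7 had H3K14ac in at least 1, while *MS2* had no peak of any mark. Over all 1769 regions, 87.2% had H3K27me3 in no *fwa* library and 44.8% had H3K14ac in none.

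*CDKB2;2*, a mitotic cyclin-dependent kinase, had a region of 2.902-fold, *PCNA2*, a DNA polymerase clamp, one of 2.22-fold, and *HIK*, a kinesin of cytokinesis, had 3 of 2.20-fold, 2.37-fold and 2.45-fold. All 5 of these regions had H3K36me3 in at least 1 *fwa* library and none had H3K27me3, as was common, since 19.2% of all 1769 regions lacked H3K36me3 in both libraries and 87.2% lacked H3K27me3 in all. A list of 8 genes held genes of PAF1C, its target *FLC* and also *FWA*. Of these, *ELF7* itself had a region of 4.40-fold and *VIP4*, the Leo1 subunit, one of 2.46-fold. Both had H3K4me3 in 4 of 4 and H3K36me3 in 2 of 2 *fwa* libraries, and Pol II was 88 and 106 bp away. The ELF7-FLAG transgene adds copies of the *ELF7* gene, and its part in that value was not tested.

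The 10 regions of highest fold all lay on genes without Pol II in the gene. *AT5G33370*, a GDSL-type lipase, had 11.2, *MBP2*, a myrosinase-binding protein, 11.03, *SEP3* 10.5 and *MIF2*, a mini zinc-finger protein, 9.84. *AT5G45960*, another GDSL-type lipase, had 9.68 on a region of 350 bp, and the replicate 2 regions it overlapped held 8 summits. A fold can come from a summit outside the region, since 1607 of the 1769 regions had a summit inside. *LACS2*, an acyl-CoA synthetase of cutin synthesis, had 9.13, and *CYP96A15*, the midchain alkane hydroxylase of stem wax, 8.70. *AT4G20320*, annotated as a CTP synthase, had 8.69 and *AT2G20870*, annotated as a cell wall protein precursor, 8.59. The tenth, *AT1G75945*, of unknown function, had 8.10.

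The marks on these 10 regions were mixed. H3K27me3 was found in at least 1 *fwa* library on 6, and in 4 of 4 on *MIF2*. H3K9ac was found in at least 1 library on 2, *AT4G20320* and *AT1G75945*. Of all 1769 regions, 87.2% had H3K27me3 in no *fwa* library and 49.7% had H3K9ac in none. On genes without Pol II, the kind of all 10, these shares were 69.8% and 49.2%. *CYP96A15* had H3K27me3 in 2 of 4 libraries and no peak of any other mark or of Pol II. *AT1G75945* stood apart, with H3K4me3 in 4 of 4 libraries, H3K9ac in 7 of 7, H3K27ac in 6 of 6 and Pol II in 6 of 6 *fwa* libraries, as well as a Pol II peak of 6.89-fold and 4.21-fold in the *elf7-3* libraries.

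Regions without a protein-coding gene included several microRNA (miRNA) genes. Of 326 annotated miRNA genes, 12 (3.68%) overlapped 11 regions, against 5.55% of all protein-coding genes. Of these miRNA genes 9, under 8 regions, had no protein-coding host. On 7 of the 8 regions H3K27me3 was found in both SET1 and SET2, and on *MIR771*, with a fold of 2.45, in 1 of them. Of all 1769 regions, 177 had H3K27me3 in both. The mature forms of these 7 regions are shown because several regulate leaf and flower development, with the seed (bases 2 to 8) in capitals, from RefSeq (TAIR10.1).
miR394a: tTGGCATTctgtccacctcc
miR394b-5p: tTGGCATTctgtccacctcc
miR171c-3p: tTGAGCCGtgccaatatcacg
miR172d-3p: aGAATCTTgatgatgctgcag
miR165b: tCGGACCAggcttcatccccc
miR319b: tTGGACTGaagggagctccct
miR858a: tTTCGTTGtctgttcgacctt
miR858b: tTCGTTGTctgttcgaccttg

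Only miR394a and miR394b-5p share a seed. *MIR172d*, whose miRNA acts on *AP2*-type floral regulators, had the highest ELF7 fold of the group, 7.07, over 1479 bp and 4263 bp from Pol II. *MIR394b* had 4.48 and *MIR394a* 3.95, their miRNA acting on the F-box gene *LCR* in the shoot meristem. *MIR165b*, which acts on class III HD-ZIP genes, had 4.04, *MIR171c*, which acts on *HAM* genes of the GRAS family, 4.00, and *MIR319b*, which acts on *TCP* genes, 2.64. *MIR858a* and *MIR858b*, which act on *MYB* genes, lay on opposite strands under a single region of 2.11-fold. *MIR394a*, *MIR172d*, *MIR165b*, *MIR319b* and the *MIR858* pair had no peak of any mark but H3K27me3, and *MIR171c* had H3K4me3, H3K36me2, H3K9ac and H3K27ac in 1 *fwa* library each. The other 3 miRNA genes overlapped protein-coding genes, and peaks there cannot be assigned to either.

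Whether Pol II appeared on these regions without ELF7 was addressed with leaves of *elf7-3*. A Pol II peak was found on 390 regions (22.0%) in the first *elf7-3* library and on 37 (2.09%) in the second, whereas the *fwa* libraries gave 3.73% in SET8, 13.8% in SET9, 12.2% in SET10, 3.90% in SET11, and 14.8% and 19.4% in SET14. One *elf7-3* library was thus above and the other below all *fwa* libraries. The *elf7-3* libraries belong to SET12 and SET13, as do the Col-0 libraries used in choosing the regions, and the *fwa* libraries to other data sets. Line and data set therefore cannot be told apart in this comparison. The means were 12.1% (n = 2 libraries) and 11.3% ± 6.29 (SD, n = 6 libraries), a difference of 0.744 points (exact permutation test, two-sided, p = 0.929, smallest possible 0.0357). Without the first *elf7-3* library the difference was -9.23 points and without the second 10.7, so that the direction rested on the library. When all Pol II lists were held to the same number of strongest peaks, the shares were 9.38% and 2.09% in *elf7-3* and 2.71% to 8.71% in *fwa*. Other lines fell within the range of *fwa* except 1 library, with 14.5% and 15.8% in EYFP-ZF, 9.10% and 2.26% in HD2A-ZF, and 11.8% and 4.18% in CPL2-ZF. The share was low in the lists with the fewest peak regions, in *elf7-3* as in the other lines.

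**Figure D5:**
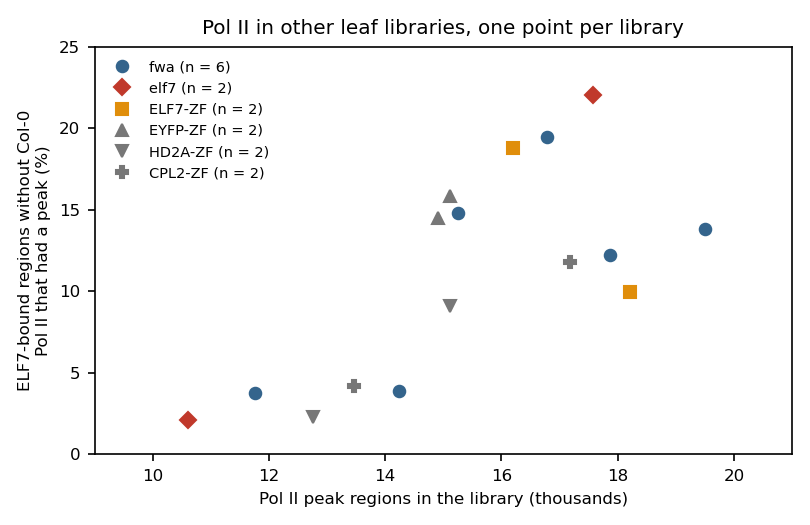
Percentage of the 1769 regions with a Pol II peak in each leaf library of 6 lines, against the number of Pol II peak regions in that library. The *elf7-3* libraries (red, labelled elf7) lie at both ends, 22.0% and 2.09%, with the *fwa* libraries between 3.73% and 19.4%.

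Pol II peaks in both *elf7-3* libraries were found on 28 of the 1769 regions, beside 0.930% of all 7315 replicate 1 regions without Col-0 Pol II and 53.7% of all ELF7-bound regions. The second *elf7-3* list is the one whose peak names carry the label of H3, which limits any count over both. Of the 28, 8 had no Pol II peak in any of the 6 *fwa* libraries. *AT5G51180*, an alpha/beta-hydrolase, had Pol II folds of 12.3 and 6.69 in the 2 *elf7-3* libraries, and *CSLA01*, a cellulose synthase-like mannan synthase, 7.50 and 2.75. *AT5G49015*, of unknown function, had 3.96 and 2.18, *EMB1586*, a DEAD-box helicase needed in embryos, 4.69 and 2.05, and *AT5G03610*, a GDSL-type lipase, 2.44 and 2.21. *AT1G01080*, an RNA-binding protein, had 3.06 and 1.98, *SCA3*, a chloroplast RNA polymerase, 2.55 and 1.75, and *PMH1*, a mitochondrial RNA helicase, 3.06 and 1.72. Of these 8 regions, 6 carried H3K4me3 and H3K9ac in *fwa* leaves. For comparison, 45.2% of all 1769 regions had H3K4me3 in no *fwa* library and 49.7% had H3K9ac in none. *CSLA01* carried H3K27me3 in 2 of 4 libraries, and the region of *AT5G03610* carried none of the marks. Among 5460 replicate 1 regions that had neither Col-0 Pol II nor a replicate 2 region, 571 had a Pol II peak in the first *elf7-3* library and 66 in the second, and 40 had one in both.

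ELF7-ZF puts ELF7 at ZF sites, and its leaves were compared with *fwa* of the same data sets on the regions without Pol II. Pol II was found on 18.8% and 9.95% of regions in ELF7-ZF and on 3.73% and 13.8% in *fwa* (SET8 and SET9), a difference of 5.57 points (exact permutation test, two-sided, p = 0.667). The groups overlapped, and the direction was opposite in SET8 and SET9. H3K4me3 differed by -0.54 points between ELF7-ZF and *fwa* (p = 1 in the exact permutation test), H3K36me2 by -2.37 (p = 0.333), H3K36me3 by 2.01 (p = 0.667) and H3K27me3 by -0.085 (p = 1). With 2 libraries against 2 the exact test cannot go below 0.333, so that no difference could pass the threshold.

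FLAG-ZF is a list of sites bound in floral tissue by a line labelled TRB1-ZF, read here as the FLAG-ZF line of the study, and it belongs to SET16, as ELF7-FLAG replicate 1 does. It overlapped 528 of the regions (29.8%), against 45.1% of the regions with Pol II and 41.9% of all ELF7-bound regions. It overlapped 37.5% of the regions on genes without Pol II and 25.3% of those on genes with Pol II elsewhere. Peaks of HD2A-FLAG, another protein tagged and mapped in flowers, overlapped 10 regions (0.565%), against 2.40% with Pol II. Of the regions without Pol II, 528 were thus also listed for another FLAG-tagged line, and whether this bears on their ELF7 fold was not tested. The overlap of FLAG-ZF was 10 of 19 on the floral regions and 6 of 10 on those of highest fold.

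Just inside the fold limit lay regions of *U1A* (2.0008), *SEC10* (2 regions of 2.0075), *APG9* (2.0109) and *AT3G25410* (2.0109). Just outside, without Col-0 Pol II, lay regions of *AT1G21160* (1.9997), *bHLH115* and *AT1G69070* (1.9987 each), *AT5G07740* (1.9979) and *ACDO1* (1.9974). In all, 86 regions without Pol II that overlapped a replicate 2 region fell below 2-fold. All 10 regions next to the limit carried H3K36me3 in both *fwa* libraries, beside 72.3% of the regions without Pol II and 80.6% of all ELF7-bound regions.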

How the data were processed

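The regions and all gene lists were chosen with earlier results of these data known. Per the submitters' processing notes and the methods of the study, Bowtie2 (2.1.0) placed reads on TAIR10, with unique hits free of mismatch kept, duplicates were dropped with Samtools (1.9), and MACS2 (2.1.1) gave 1 peak list per library. A control is named for the FLAG-ZF list alone, and FLAG peaks frequent in Col-0 were removed. A total of 108 peak lists were used. The deposited fold of a peak is a ratio of signal to local background at the summit, and the deposited −log10 q value comes from the same caller. Folds were read only within a list. The ELF7-FLAG replicate 1 list holds positions alone, so the fold of a region is that of the highest summit of the replicate 2 regions it overlaps. The start of a region in a list counts from 0, and printed coordinates count from 1. BS-PCR-seq files, in which the authors deposited counts of methylated reads after alignment with BSMAP (2.90), served only to check the genome build: 103 of 103 cytosine contexts were identical to TAIR10.1.

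Overlap was counted from 1 bp on with python (3.11.15) and numpy (2.4.6), and the counts of regions were the same with bedtools. Figures were drawn with matplotlib (3.10.9). Genes and miRNAs came from the RefSeq annotation of TAIR10.1, and a region's host was the protein-coding gene it overlaps most. The share of regions with a peak was computed in each library. It was compared between regions without and with Pol II by exact sign-flip permutation over libraries, and between lines by exact permutation of libraries, both two-sided and tested on simulated data. Genes were named by rule: the 10 regions of highest fold, the 5 widest, the 5 on each side of the fold limit, those with Pol II in both *elf7-3* and no *fwa* libraries, genes with the most regions, and every listed gene that overlaps a region. Alternatives varied the overlap, the peak and fold thresholds, the distance to Pol II, the replicate block and the libraries left out.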

Additional observations from a re-analysis of the deposited data

Results flagged for a closer look

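The H3K27me3 difference between ELF7-bound regions without and with Pol II had opposite signs in different data sets of *fwa* leaves. The mean was 5.85 percentage points in the SET1 and SET2 libraries (6.72 and 4.98) and -6.26 points in the SET14 libraries (-7.98 and -4.54). Each library of the one kind moved one way and each of the other the opposite way, and the difference between data sets was not tested. The SET14 lists held 2199 and 1149 regions, against 12441 and 14103 in SET1 and SET2, and overlapped 16 to 17 of 18 photosynthesis genes rather than 1 to 2. Within the 7 groups of 4 to 10 libraries examined, no library lay far from the others by Dixon's criterion.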

How the results depend on the processing

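Of 134 alternatives over 16 results, 116 were counted as unchanged, 16 reversed in sign and 2 moved the number of regions by over 1.5 times. For a tested difference, unchanged meant the same direction and side of the threshold. For the number of regions it meant a change within 1.5 times, and without the lists of SET2, SET4 and SET20 the same direction alone. No main difference passed the threshold, so that keeping its side says little. The number of regions rose from 1769 to 3665 when a Pol II peak had to cover 50% of a region, fell to 358 with a fold of at least 3, and lay between 2151 and 2580 when 1 Col-0 Pol II library was left out. The H3K27me3 difference turned positive with a peak over the midpoint (0.32), the stronger 50% of each list (0.56), a fold of at least 3 (8.72), more than 500 bp to Pol II (1.97), no Pol II in any overlapped gene (7.35) and SET1 and SET2 alone (5.85, chosen after seeing the data), and ran from -2.51 to 2.39 without 1 library. The *elf7-3* difference ran from -9.23 without replicate 1 to 10.7 without replicate 2. Between ELF7-ZF and *fwa*, leaving out 1 library gave -7.09 to 6.02 points for H3K4me3, -0.93 to 4.95 for H3K36me3, -1.16 to 0.99 for H3K27me3, 0.51 to 10.6 for Pol II and -3.45 to -1.30 for H3K36me2, and the H3K27me3 difference was 0.028 with a peak over the midpoint. With the replicate block, in which ELF7-ZF and *fwa* were paired within a data set, the differences were 5.57 ± 13.4 (SD, n = 2 pairs) for Pol II, -0.54 ± 0.839 for H3K4me3, -2.37 ± 0.400 for H3K36me2, 2.01 ± 0.919 for H3K36me3 and -0.085 ± 0.360 for H3K27me3, and no call changed. Leaving out 1 library kept the sign for the other marks, with ranges of -41.8 to -38.3 for H3K4me3, -21.7 to -20.5 for H3K36me2, -12.7 to -6.72 for H3K36me3, -44.9 to -43.7 for H3K9ac, -38.2 to -37.8 for H3K14ac, -39.9 to -37.9 for H3K27ac, -47.1 to -46.3 for H4K16ac and -70.4 to -67.8 for Pol II. A peak over the midpoint shrank these differences by over 1.5 times for all marks but H3K36me2, to -20.5 for H3K4me3, -5.61 for H3K36me3, -22.9 for H3K9ac, -17.0 for H3K14ac, -20.6 for H3K27ac, -17.6 for H4K16ac and -44.6 for Pol II. H3K36me3 moved to -34.0 with a fold of at least 3, -29.1 without Pol II in any overlapped gene and -4.40 with the stronger peaks, and H3K36me2 to -13.6 with the stronger peaks. The cause of these shifts and of the reversals was not tested. With 2 libraries per mark or line no test could pass 0.05, and unknown depth limits what a missing peak shows.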

Other observations

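Among the 22 ELF7-bound regions without Pol II that lay over noncoding genes or pseudogenes alone, and the 5 over no annotated gene, marks in *fwa* leaves varied. Apart from miRNA genes, the highest ELF7 folds, 6.50 each, were found on AT4G26255, a noncoding RNA gene, and on the region that spans AT5G40348 and AT5G06015, annotated as long noncoding RNA genes. The former had H3K27me3 and H3K4me3 in 1 of 4 *fwa* libraries each, H3K36me3 in 1 of 2 and H3K27ac in 2 of 6, and the latter had H3K27me3 in 2 of 4 and no other mark. AT4G08035, a noncoding RNA gene 41970 bp from the nearest Col-0 Pol II peak, had a fold of 3.07 with H3K4me3 in 4 of 4 libraries, H3K9ac in 7 of 7 and H3K27ac in 6 of 6. AT5G35935, a pseudogene under a region of 3414 bp and 3.43-fold, had no peak of any mark and no Pol II in any *fwa* library.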
